A study of Mus musculus with 12 samples.

Results

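Fully grown germinal vesicle oocytes that lacked both Ring1 and Rnf2 were compared with control oocytes across all measured genes. Of the 12 arrays in the series, 6 belong to this comparison, 3 of the double mutant and 3 of the control, and each was assigned from its title in the labels. Control females were Ring1+/+Rnf2F/F, with an intact Ring1 gene and a floxed Rnf2 gene that was never recombined. Double mutant females were Ring1-/-Rnf2F/FZp3-cre. They were null for Ring1 in every cell of the body and deleted Rnf2 through a Zp3-cre transgene, whose promoter works only in oocytes from the growth phase on. The other 6 arrays held the Ring1 mutant (Ring1-/-Rnf2F/F) and the Rnf2 mutant (Ring1+/+Rnf2F/FZp3-cre), with 3 arrays each. All 4 genotypes carried the floxed Rnf2 alleles on a mixed 129/Sv and C57BL/6J background. Females were 5 to 10 weeks old and received 5 U of PMSG, a gonadotropin that stimulates follicle growth. Oocytes were collected 46 h later in medium with 2.5 µM milrinone, a phosphodiesterase inhibitor that keeps them in meiotic arrest. Each sample was a pool of 50 oocytes from several females, and its RNA was amplified before hybridisation. The labels call the samples biological replicates. They do not say whether a female gave oocytes to more than one pool, and p-values therefore rest on pool-to-pool spread alone.

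Ring1 and Rnf2 are the alternative catalytic subunits of Polycomb repressive complex 1. The complex places ubiquitin on histone H2A at silent genes and compacts their chromatin, and it is best known for keeping developmental regulators off. A fully grown oocyte is close to transcriptionally silent, so its RNA is largely a store built during growth, which meiotic maturation and the early embryo later use.

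Values are log2 intensities per gene, so a difference of 1 is a 2-fold change, and errors of differences are standard errors of one limma fit to all 12 arrays, with n = 3 arrays per group. A gene was called at a Benjamini-Hochberg adjusted p below 0.05 over 21106 genes. The table carries no detection calls. The 95th percentile of the mean level of 1026 olfactory receptor genes, a family of the nasal epithelium, lay at 3.84 and was used as a floor. Arrays of the same genotype correlated at 0.996 or more across genes, and no control array correlated with a double mutant array above 0.980. The number of genes above the floor was 12041 to 12311 on the control arrays and 12223 to 12704 on the double mutant arrays, so these ranges overlap. Where the mean of one group lay below the floor, a difference is printed as "at least", counted from the floor, and where both did no size is given.

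Rnf2 read 8.33, 8.44 and 8.23 on the control arrays and 5.90, 5.68 and 6.01 on the double mutant arrays. The groups did not overlap, and the fall of 2.47 ± 0.11 was called (limma, adjusted p = 1.0e-08). Ring1 read 3.85, 3.87 and 3.80 in control and 3.99, 3.50 and 3.87 in the double mutant. These values lie at the floor and overlap, so the Ring1 probes give no check of the Ring1 genotype, and where they lie within the gene was not examined.

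All 19 defining oocyte markers stood above the floor on every array, with medians of 11.01 to 11.07. Of these markers 1 rose (5.26%) and 7 fell (36.8%). Among all genes with control levels of 7.52 or more, where these markers lie, 10.4% rose and 39.5% fell. The share of markers that fell is therefore near that of genes of like level. Nlrp5, a maternal-effect gene of the subcortical complex, rose from 11.05, 11.06 and 10.98 to 11.22, 11.27 and 11.26. Figla, a transcription factor that activates zona pellucida genes, fell from 7.87, 8.05 and 8.11 to 7.03, 7.24 and 7.09. The rise of Nlrp5 was not called when arrays were centred on their medians (limma, adjusted p = 0.0083 as deposited and 0.26 centred). Over all genes 14.2% were called higher and 17.5% lower. Among 26 granulosa or cumulus markers, 3 rose (11.5%) and 2 fell (7.69%), and 12 lay below the floor on all 6 arrays. The log2 of their summed linear level was 10.53 to 10.91 on the control arrays, and all 3 double mutant arrays lay above that at 10.98 to 11.21. Without Ptgs2 the sums were 10.50 to 10.88 and 10.55 to 10.82, which overlap. Some markers of this list, picked after their values were seen, spread widely between pools of one genotype. Inha read 7.01, 6.82 and 5.66 in control and 6.83, 5.32 and 5.31 in the double mutant. Star read 6.10, 4.53 and 4.02 against 4.56, 3.38 and 3.51. Serpine2 spread little, at 9.08, 9.08 and 9.03 against 9.28, 9.21 and 9.28. Whether pools carried unequal amounts of follicle cells was not tested. Of 18 markers of theca, stroma, endothelium and blood 4 rose (22.2%) and 1 fell (5.56%). Their sums were 9.15 to 9.17 in control and 8.89 to 8.93 in the double mutant. Without Myh11, a smooth muscle myosin that fell by 0.97 ± 0.07, the sums were 8.46 to 8.51 and 8.50 to 8.57, which overlap. Ptgs2 and Myh11 were left out after their values were seen. In bulk samples fewer cells of a type and less RNA per cell cannot be told apart.

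Between the genotypes a large share of the measured transcriptome differed by small amounts and a smaller share by large amounts. The number and direction of the small differences depended on the scaling of the arrays, as given below. Of 21106 genes 3000 were called higher (14.2%) and 3687 lower (17.5%). The median change was 0.53 among the called rises and -0.39 among the called falls, against -0.04 over all genes. Changes below 1.5-fold made up 54.6% of the rises and 77.4% of the falls. As deposited, the balance turned with size. With arrays centred on their most abundant 25% of genes, rises led among all calls as well (4591 and 2250). At 2-fold or more, 634 genes were higher (3.00%) and 165 lower (0.782%). At 4-fold or more the fitted counts were 163 and 11, and at 8-fold or more 51 and 1. With group means below the floor set to the floor, an alternative chosen after seeing the data, 543 and 158 of these genes still differed by 2-fold or more. In each of these 634 and 165 genes the 3 arrays of one genotype lay on one side of the 3 of the other. The same held for 6541 of all 6687 called genes, so it lends the 2-fold changes no extra support.

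**Figure D1:**
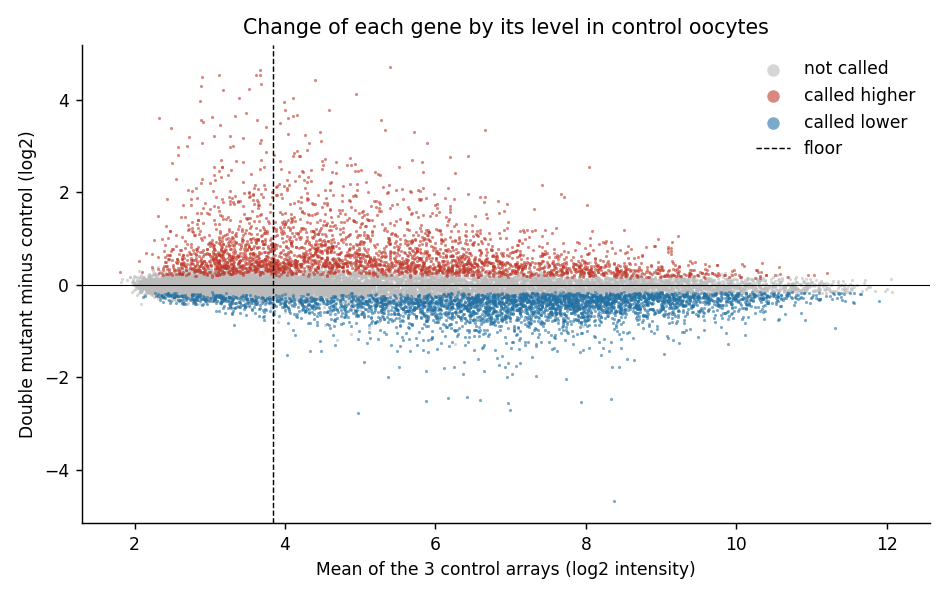
Each point is 1 of 21106 genes, with the mean of the 3 control arrays on the x axis (log2 intensity) and the difference of the double mutant from control on the y axis (log2). Red points were called higher, blue points lower, grey points were not called, and the dashed line marks the floor at 3.84. Large rises start mostly at low to middle control levels and large falls at middle to high ones.

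Starting levels of rises and falls differed, and a gene near the floor has little room for a measured fall. Genes of at least 2-fold higher level had a median control level of 4.30, and genes of at least 2-fold lower level one of 6.96, against 4.35 over all genes. The middle 50% of control levels ran from 3.57 to 5.27 for these rises and from 6.07 to 7.83 for these falls. In the double mutant the same rises had a median of 6.15 and the same falls one of 5.47. A control level from the same arrays shares their error with the change, so the levels were also taken from the 6 single-mutant arrays. There the medians were 4.39 for the rises and 6.80 for the falls.

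Genes were put in 4 classes by control level: 8916 below the floor, and 3 classes of about equal size above it, called low (3.84 to 5.43), middle (5.43 to 7.52) and high (7.52 to 12.1). Below the floor 9.40% of genes rose and 3.32% fell. In the low class 22.2% rose and 11.6% fell, in the middle class 20.6% and 32.4%, and in the high class 10.4% and 39.5%. Calls of at least 2-fold numbered 212 rises and 0 falls below the floor, 282 and 18 in the low class, 130 and 92 in the middle class, and 10 and 55 in the high class. Levels below the floor leave little room for a measured 2-fold fall, so the 0 there was largely fixed in advance. The same limit bears on the low class.

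The order of the classes held in part under other scalings. With arrays centred on their most abundant 25% of genes, the median of all genes moved up by 0.11, and rises outnumbered falls in all but the high class (815 rises and 1032 falls there). With median centring, which moved it down by 0.12, falls outnumbered rises in every class. After quantile normalization the low class turned from 903 rises and 471 falls to 706 and 949. The split of at least 2-fold changes stayed on the side of rises in each, at 594 and 183, 532 and 243, and 783 and 119 with quantile normalization, median centring and centring on abundant genes. Over all calls the share of rises was 44.9% as deposited, 44.5% after quantile normalization, 23.1% with median centring and 67.1% with centring on abundant genes.

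**Figure D2:**
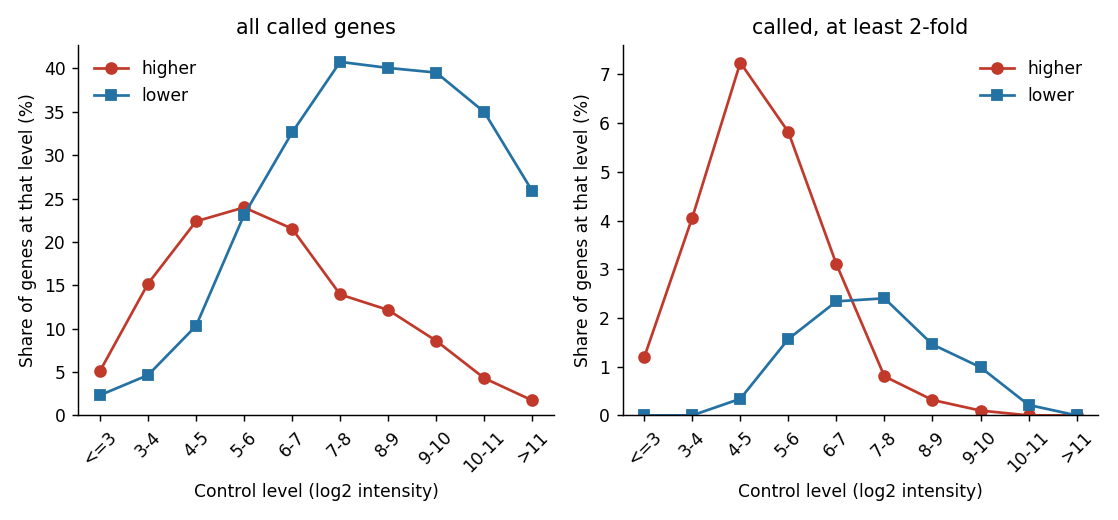
The x axis gives the control level in steps of log2 intensity and the y axis the share of genes at that level that were called (%), for all calls on the left and for calls of at least 2-fold on the right. Rises of at least 2-fold peak at levels of 4 to 5 with 7.24%, and falls of at least 2-fold at 7 to 8 with 2.40%.

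Of the 634 rises of at least 2-fold, 212 (33.4%, Wilson 95% interval 29.9 to 37.2%) started below the floor, against 42.2% of all genes. The interval counts genes as independent, which they are not, and measures no spread between arrays. The comparison with all genes depends on where the floor is set. At the 90th percentile of olfactory receptors (3.41) the shares were 20.3% and 33.6%, and at the 99th (6.29) they were 91.0% and 69.5%, so the order of rises and all genes turned. Among falls of at least 2-fold none of 165 started below the floor, where a measured fall of that size has little room. Below the 99th percentile 30.3% of them started. Of 8425 genes below the floor on every control array, 311 were called and lay above it on every double mutant array. Of 11717 genes above the floor on every control array, 57 were called and lay below it on every double mutant array.

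The rises from below the floor that the fit ranked first were in genes of unlike function. Ddah1, which breaks down methylated arginines that inhibit nitric oxide synthases, read 3.64, 3.83 and 3.54 in control and 8.41, 8.25 and 8.27 in the double mutant. Tbl1x, an X-linked subunit of nuclear receptor corepressor complexes, read 3.95, 3.52 and 3.38 against 8.25, 8.20 and 8.03. Plod2, a lysyl hydroxylase that modifies collagen, read 3.82, 3.77 and 3.43 against 8.31, 8.24 and 8.08. Leading genes of each class were picked among called genes whose groups did not overlap, so their separation was fixed by that choice. Amigo2, a leucine-rich repeat adhesion protein, read 2.97, 3.15 and 3.26 against 7.60, 7.65 and 7.75. Counted from the floor, the rises were at least 4.48 for Ddah1, 4.32 for Tbl1x, 4.37 for Plod2 and 3.83 for Amigo2, with limma adjusted p of at most 3.9e-10. Genes called lower from below the floor, among them Gm5941, Fam124b and the sperm hyaluronidase gene Hyal5, were below it in both groups.

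In the low class Mt1, a metal-binding metallothionein, read 5.68, 5.23 and 5.27 in control and 10.23, 10.13 and 9.98 in the double mutant. It was as high in the Rnf2 mutant, with a difference from control of 4.79, against -0.08 in the Ring1 mutant. Ptgs2, the inducible prostaglandin synthase that cumulus cells express around ovulation, read 5.19, 4.90 and 4.75 against 9.13, 9.03 and 9.07. Its part in the granulosa marker sums is given above. Krt79, a keratin, rose by 4.05 ± 0.17. Fsd2 fell in this class by at least 1.22, from 5.24, 5.04 and 4.88 to 3.59, 3.19 and 3.39, and Gm5891 fell by at least 1.53. The immunoglobulin segment Ighv1-43 fell by at least 1.13. EG547103 fell by at least 0.19, a call lost without control replicate 2 (limma, adjusted p = 0.067) or without double mutant replicate 3 (limma, adjusted p = 0.060). Its mean was 2.33 in the Ring1 mutant and 2.45 in the Rnf2 mutant, so the control mean alone lay above the floor.

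The largest rises of the middle class were smaller than those of the low class. Gjb2, a gap junction connexin, read 6.75, 6.61 and 6.63 in control and 9.91, 10.22 and 9.93 in the double mutant. Krt8, a keratin of simple epithelia, read 5.65, 5.54 and 5.98 against 9.07, 9.0 and 9.05. Hbegf, a ligand of the EGF receptor, rose by 3.07 ± 0.12, and Fabp7, a fatty acid binding protein, by 2.80 ± 0.11. That the groups did not overlap in these 4 genes was fixed by how they were picked. Spam1, the sperm surface hyaluronidase gene, read 6.91, 7.18 and 6.79 in control and 4.55, 4.50 and 4.19 in the double mutant. Uggt2, a glucosyltransferase of glycoprotein folding, fell by 2.48 ± 0.25 and differed by -2.69 in the Ring1 mutant. Slc14a1, a urea transporter, read 7.05, 6.53 and 4.04 in control, so its 3 control arrays disagree. In the double mutant it read 3.59, 3.26 and 3.20. Its mean was 3.22 in the Ring1 mutant and 3.18 in the Rnf2 mutant, so the control mean alone lay above the floor. The probe set used for Rpl27a, a ribosomal protein gene, fell by 2.71 ± 0.15, while its remaining probe sets read 1.08 and -1.14 and disagree in sign.

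In the high class rises were fewer and smaller. Sycp3, a component of the synaptonemal complex that pairs meiotic chromosomes, read 7.47, 7.96 and 7.59 in control and 9.68, 9.73 and 9.52 in the double mutant. Glrx2, a mitochondrial glutaredoxin, read 7.61, 7.74 and 7.77 against 9.63, 9.65 and 9.53. Glul, glutamine synthetase, rose by 1.73 ± 0.07, and a second probe set of it read 2.04. Defa29, a defensin gene, rose by 2.54 ± 0.15, with 1.04 on a second probe set and 0.94 in the Ring1 mutant. Members of the defensin family are near-identical, so probes may read several of them. Gsto2, a glutathione transferase, read 8.37, 8.36 and 8.40 in control and 3.52, 3.75 and 3.79 in the double mutant, below the floor on every double mutant array. Its mean was 3.49 in the Ring1 mutant, also below the floor, and 7.74 in the Rnf2 mutant. Gm6578 fell by 2.04 ± 0.09.

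**Figure D3:**
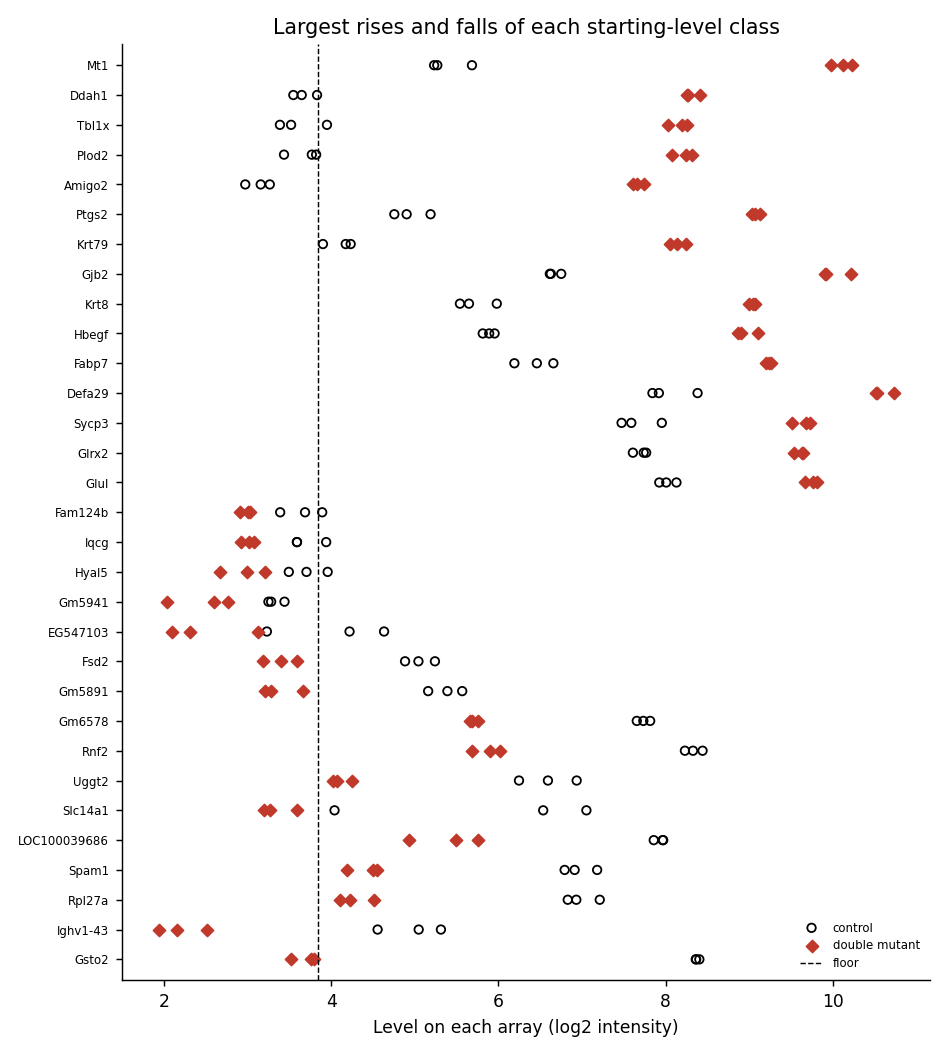
Each row is a gene among the 4 largest rises and falls of a starting-level class, and the x axis is its level on each array (log2 intensity). Open circles are the 3 control arrays, red diamonds the 3 double mutant arrays, and the dashed line is the floor at 3.84. Ddah1 reads 3.54 to 3.83 in control and 8.25 to 8.41 in the double mutant, while EG547103 and Slc14a1 have widely spread control arrays.

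The same genes were also read in both single mutants. The 634 genes at least 2-fold higher in the double mutant had a median of 1.52 there, 0.02 in the Ring1 mutant and 0.08 in the Rnf2 mutant. The 165 genes at least 2-fold lower had medians of -1.24, -0.13 and -0.10. With levels below the floor set to the floor, the double mutant medians were 1.37 and -1.20. Over all genes 0.772% were called in the Ring1 mutant and 0.137% in the Rnf2 mutant. Of the 634 rises, 19 were called in the Ring1 mutant, 15 of them higher, and 11 in the Rnf2 mutant, 10 of them higher. Of the 165 falls 17 and 1 were called, 0 of them higher. The 3 comparisons share the control arrays, and the genes were chosen on the double mutant arrays, so these medians are a description with no test.

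Promoters are shown for 4 genes of the classes above, those with the most and the fewest CpG dinucleotides among the class-leading rises and falls that the promoter table holds, to display how widely the start regions of changed genes differ. Each covers 250 bases before to 50 after the gene's start in RefSeq on GRCm38.p6, 5′ to 3′ on the gene's strand, with CG in capitals. Amigo2 (chr15:97247238-97247537, minus strand) holds 46 CG and Krt79 (chr15:101940275-101940574, minus strand) holds 3. Rpl27a (chr7:109518945-109519244, plus strand) holds 31 and Gm5891 (chr7:21921242-21921541, minus strand) holds 0.
Amigo2: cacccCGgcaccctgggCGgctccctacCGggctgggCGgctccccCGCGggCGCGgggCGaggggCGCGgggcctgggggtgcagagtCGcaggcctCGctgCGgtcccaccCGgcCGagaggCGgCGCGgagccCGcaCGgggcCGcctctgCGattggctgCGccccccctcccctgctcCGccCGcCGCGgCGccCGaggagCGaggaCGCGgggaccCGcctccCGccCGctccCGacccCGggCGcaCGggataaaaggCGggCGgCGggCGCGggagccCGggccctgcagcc
Krt79: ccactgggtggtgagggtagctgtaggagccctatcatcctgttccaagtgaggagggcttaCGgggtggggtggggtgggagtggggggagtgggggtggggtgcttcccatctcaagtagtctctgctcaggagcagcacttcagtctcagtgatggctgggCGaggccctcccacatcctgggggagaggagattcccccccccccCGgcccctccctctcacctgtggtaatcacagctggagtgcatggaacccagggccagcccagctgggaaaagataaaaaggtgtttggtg
Rpl27a: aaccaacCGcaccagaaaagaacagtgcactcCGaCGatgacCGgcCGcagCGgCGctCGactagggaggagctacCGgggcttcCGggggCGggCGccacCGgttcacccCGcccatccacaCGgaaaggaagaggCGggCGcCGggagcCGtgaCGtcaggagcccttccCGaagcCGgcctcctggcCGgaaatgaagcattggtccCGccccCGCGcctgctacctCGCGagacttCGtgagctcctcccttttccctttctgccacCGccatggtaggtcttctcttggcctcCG
Gm5891: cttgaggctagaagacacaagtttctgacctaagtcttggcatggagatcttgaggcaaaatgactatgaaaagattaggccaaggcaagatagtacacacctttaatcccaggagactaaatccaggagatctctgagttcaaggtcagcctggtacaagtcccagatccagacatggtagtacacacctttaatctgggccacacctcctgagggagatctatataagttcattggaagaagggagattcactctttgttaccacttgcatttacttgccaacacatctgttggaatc

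None of these 4 windows holds an E-box (CACGTG), an E2F-type element (spelled GCGGGAA in the search) or a TATA box (TATAAA) on either strand, which says only that these letters are absent from them. The planned comparison of CpG content and of these motifs between changed genes and all genes tested is void, because promoter sequences matched only 72.4% of the 21106 genes and 76.3% of the 634 rises, and 80% was required. Narrower gene sets tried afterwards are listed with the processing, and no share is given from them.

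The gene lists are described by their counts, to be read against 14.2% higher and 17.5% lower over all genes. They were chosen with earlier results of these data known, so their counts describe the lists and are not independent evidence of direction. Of 22 ephrins and Eph receptors, the contact signals that repel growing axons, 9 rose and 5 fell. Epha1 read 4.44, 4.53 and 4.52 in control and 7.20, 7.22 and 7.10 in the double mutant, and Ephb1 rose by 2.27 ± 0.12, though its second probe set read -0.03. Ephb6 fell by 0.49 ± 0.07. The list had a median of 0.09, and with median centring 8 rose and 8 fell. Of 19 Slit, Robo, netrin and Unc5 genes, whose products guide axons through secreted ligands and their receptors, 8 rose and 2 fell, with a median of 0.02. Slit2, a ligand, read 2.62, 2.75 and 2.76 against 4.77, 4.88 and 4.63, and its receptor Robo2 rose by 1.83 ± 0.09. Of 31 semaphorins, plexins and neuropilins 10 rose and 8 fell, with a median of 0.00. The ligand Sema3a rose by 2.82 ± 0.13 from 3.80, 3.69 and 4.05, and the receptor gene Plxnd1 by 1.94 ± 0.11. The receptors Plxna4 and Plxnb2, at control levels of 8.85 to 8.97 and 7.94 to 7.96, each fell by 1.05, with standard errors of 0.06 and 0.08.

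Growth factor pathways held rises of dim members and falls of bright ones. Of 43 Wnt receptors, antagonists and targets 13 rose and 10 fell, with a median of 0.05. Fzd6, a Wnt receptor, read 3.70, 3.97 and 4.08 in control and 5.74, 6.41 and 6.13 in the double mutant. The intracellular Wnt antagonist Nkd2 rose by at least 1.83, whereas its paralogue Nkd1 fell by 0.59 ± 0.06 from a control level of 9.49 to 9.55. The coreceptor gene Lrp5 also fell by 0.59 ± 0.06. Among 22 genes of the insulin-like growth factor system 8 rose and 5 fell, with a median change of -0.06; the mean change was 0.28. Igf2, a fetal growth factor, read 3.41, 3.39 and 3.52 against 5.80, 5.69 and 5.53. Irs1, the adaptor that carries the receptor's signal, rose by at least 1.74. The receptor gene Igf1r fell by 0.46 ± 0.07. Of 34 receptor tyrosine kinases of other growth factor families 8 rose and 4 fell. Flt1, a VEGF receptor, rose by 1.76 ± 0.08 from 5.24, 5.23 and 5.33. Kit, the oocyte's receptor for the granulosa-derived Kit ligand, fell from 10.10, 10.12 and 10.17 to 9.65, 9.57 and 9.64. With median centring the Wnt list had 12 and 12, the insulin-like list 8 and 8, and the receptor kinase list turned to 6 rises and 8 falls.

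Feedback regulators of receptor kinase signalling leaned to rises, while the Notch and Hedgehog lists gave no such lean under every scaling. Of 16 MAP kinase phosphatases and Sprouty family genes, which dampen signalling downstream of receptor kinases, 8 rose (50%) and 1 fell (6.25%). The median was 0.22. Dusp6, an ERK phosphatase, read 4.00, 4.19 and 4.15 in control and 7.12, 6.92 and 6.69 in the double mutant. Dusp9 rose by 1.37 ± 0.12, and Dusp7 fell by 0.23 ± 0.06, a call lost after quantile normalization (limma, adjusted p = 0.16) and with centring on abundant genes (limma, adjusted p = 0.19). Rises outnumbered falls in this list under all 3 other scalings. Of 29 Notch pathway genes 10 rose (34.5%) and 3 fell (10.3%), none by 2-fold, and with median centring 5 rose and 8 fell. The ligand gene Dll1 rose by at least 0.08, and the ligand gene Jag2 fell by 0.45 ± 0.07. Of 15 Hedgehog genes 2 rose (13.3%), a share near the 14.2% of all genes, and with median centring 2 rose and 4 fell. The 2 rises were the transcription factor Gli3 by 1.29 ± 0.15 and the ligand Shh by 0.53 ± 0.11.

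Channels of excitable cells had more rises than falls as deposited, against 14.2% higher over all genes. Of 69 transmitter-gated channel subunits 19 rose (27.5%) and 5 fell, with a median of 0.01. Chrna5 read 4.35, 4.24 and 4.11 in control and 6.64, 6.64 and 6.77 in the double mutant, and Chrnb3 3.31, 3.17 and 3.26 against 5.77, 5.74 and 5.34. Both encode nicotinic acetylcholine receptor subunits. Of 92 potassium channel subunits 17 rose (18.5%) and 5 fell, so the share that rose is near that of all genes. Kcnk5, a background potassium channel, rose by at least 1.67, and Kcnmb3, a regulatory subunit of a calcium-activated channel, fell by 1.29 ± 0.09. With median centring both lists turned, to 14 rises and 16 falls and to 15 and 20. Of 34 TRP channels and aquaporins 10 rose and 4 fell. The cation channel gene Trpc1 read 5.80, 6.17 and 5.97 against 7.87, 7.96 and 8.01. Of 338 solute carriers 73 rose and 54 fell, and with median centring 57 rose and 104 fell. Slc16a6, a member of the monocarboxylate transporter family, rose by 3.79 ± 0.11 and the bicarbonate cotransporter Slc4a4 by at least 2.43, while the anion transporter Slc26a9 fell from 8.42, 8.31 and 8.32 to 6.60, 6.53 and 6.61. The 24 V-ATPase subunits, which acidify vesicles, had 5 rises and 5 falls.

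Glycosyltransferases that build the sugar chains of glycoproteins had 32 rises and 13 falls among 112 genes (28.6% and 11.6%), with a median of 0.05. Galnt7, which starts and extends mucin-type chains, read 3.51, 3.33 and 3.17 in control and 6.74, 7.0 and 7.23 in the double mutant. B3galt1, a galactosyltransferase, read 4.25, 4.38 and 4.33 against 7.39, 7.38 and 7.40. The ganglioside synthase gene St3gal5 fell by 1.36 ± 0.08 and the galactosyltransferase gene B4galt2 by 0.99 ± 0.06. Rises outnumbered falls in this list under each scaling, at 28 and 27 with median centring.

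Adhesion and matrix genes moved in both directions. Of 23 connexins and pannexins 5 rose and 2 fell, and besides Gjb2 the connexin gene Gjc1 rose by 2.33 ± 0.21, from 4.40, 4.11 and 4.41 to 6.12, 7.21 and 6.59. Of 26 integrins 4 rose (15.4%, near the 14.2% of all genes) and 3 fell (11.5%), which turned to 4 and 5 after quantile normalization. Itga5, a fibronectin receptor subunit, rose by 2.13 ± 0.18. Of 15 laminins, nidogens and basement membrane proteoglycans 2 rose (13.3%) and 4 fell (26.7%). Lama5 read 7.05, 7.09 and 7.08 against 5.98, 5.93 and 6.03. Timp2, an inhibitor of matrix metalloproteases, read 3.29, 3.27 and 3.47 against 5.71, 6.45 and 5.91. Of 54 serpins, a family of protease inhibitors, 8 rose (14.8%) and 1 fell (1.85%), which turned to 7 and 9 with median centring. The share that rose is near the 14.2% of all genes. Only 9 of the 54 had a control mean above the floor, which leaves little room for measured falls. Serpinb3a was called higher with both group means below the floor, and its double mutant arrays spread from 2.88 to 4.69.

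Transcription factor families held both rises and falls. Of 25 KLF and SP factors 9 rose and 3 fell, 5 of the rises by 2-fold, with a median of 0.04. Klf4 read 5.47, 5.39 and 5.56 in control and 7.71, 7.55 and 7.35 in the double mutant, and Klf3 rose by at least 0.81. The oocyte factor Klf17 fell from 10.06, 9.89 and 9.93 to 9.18, 9.26 and 9.29. Of 24 ETS factors 8 rose and 5 fell. Etv5, an effector of growth factor signalling, rose by 1.86 ± 0.13 and Etv1 by 1.38 ± 0.17, while Elf2 fell by 1.02 ± 0.07. Of 47 nuclear receptors 12 rose and 7 fell, among them the orphan receptor Nr4a2 by 1.74 ± 0.12. With median centring the ETS list turned to 6 and 7 and the nuclear receptor list to 7 and 14. Of 367 zinc finger proteins of the Zfp, Zkscan and Zscan names 69 rose (18.8%) and 78 fell (21.3%), with a median of -0.03, and with centring on abundant genes 98 rose and 60 fell. The X-linked Zfp711 read 2.29, 2.81 and 2.37 against 5.69, 6.33 and 5.65.

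Housekeeping machinery, most of it in the high starting class, leaned to small falls. Mitochondrial ribosomal proteins, which translate the respiratory chain subunits encoded in the organelle, had 32 falls (42.7%) and 2 rises among 75 genes. Their median change was -0.20, against -0.12 in the high class, where 39.5% of genes fell and 10.4% rose. Mrpl34 read 9.08, 9.28 and 9.36 in control and 8.51, 8.07 and 7.34 in the double mutant, and Mrps15 fell by 1.01 ± 0.12. Mrps26 rose by 0.74 ± 0.11. Falls outnumbered rises under each scaling, at 16 and 6 with centring on abundant genes. Of 56 nucleoporins and nuclear transport receptors 19 fell (33.9%) and 1 rose (1.79%), with a median of -0.09. With all genes weighted to the starting-level classes of this list, 31.9% fell and 13.2% rose. The share that fell is therefore near that of genes of like level. The importin gene Ipo9 fell from 7.79, 7.64 and 7.60 to 6.71, 6.74 and 6.86, and Nup188 fell by 0.64 ± 0.06. Nup62 rose by 0.15 ± 0.05 at the threshold (limma, adjusted p = 0.04995), and this call was lost without any one of the 6 arrays (limma, adjusted p 0.058 to 0.13). Falls outnumbered rises by 10 to 8 with centring on abundant genes.

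Genes of the unfolded protein response, which restores protein folding in the endoplasmic reticulum, had 13 falls and 3 rises among 27. The median was -0.23, and falls led under each scaling. The folding factors Manf and Pdia4 fell by 0.65 ± 0.10 and 0.57 ± 0.06. Asns, asparagine synthetase, read 4.81, 4.91 and 5.16 in control and 7.08, 7.20 and 7.12 in the double mutant. Pdia6, a disulfide isomerase, rose by 0.98 ± 0.12 and differed by 1.15 and 0.81 in the Ring1 and Rnf2 mutants. Of 123 coat, sorting nexin, exocyst and VPS genes, which move membrane between compartments, 41 fell and 17 rose, and with centring on abundant genes 22 fell and 22 rose. As deposited 33.3% of this list fell, against 29.1% of all genes weighted to its starting-level classes. Vps33b fell by 0.79 ± 0.06, whereas Snx24 rose from 3.10, 3.09 and 3.04 to 4.79, 5.00 and 5.18.

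Lists of RNA processing and protein synthesis had more falls than rises as deposited, and the direction turned in several of them with centring on abundant genes. The share that fell was 27.2% of splicing factors, 26.9% of translation factors, 24.2% of ribosome biogenesis factors and 18.8% of proteasome subunits. These shares lie above the 17.5% of all genes and below the 32.4% and 39.5% of the middle and high starting classes, where the median control levels of these lists lie. Of 81 splicing factors 22 fell and 8 rose (10 and 14 with that centring). Hnrnpl fell by 0.60 ± 0.06, and Rbm5 rose by 0.78 ± 0.08. Of 78 translation factors 21 fell and 10 rose (9 and 18), and of 62 ribosome biogenesis factors 15 fell and 10 rose (11 and 16). Polr1a, the largest subunit of RNA polymerase I, fell from 7.27, 7.12 and 7.37 to 6.49, 6.39 and 6.37. Of 34 tRNA synthetases 11 fell and 3 rose (7 and 7). The cytosolic isoleucine enzyme gene Iars fell by 0.79 ± 0.07, and Tarsl2, a threonine enzyme-like gene, rose by 1.49 ± 0.10. Of 82 Mediator, TFIID and RNA polymerase II genes 26 fell and 14 rose (14 and 19). Tbpl2, the oocyte's TATA-binding protein relative, read 4.82, 5.02 and 4.76 against 5.69, 5.78 and 5.80. Of 48 proteasome subunits 9 fell and 6 rose, and after quantile normalization 7 fell and 11 rose. Of 84 heat shock proteins and co-chaperones 18 fell and 10 rose (12 and 20). The small heat shock protein gene Hspb1 read 7.20, 7.56 and 7.47 in control and 9.61, 9.60 and 9.53 in the double mutant.

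**Figure D4:**
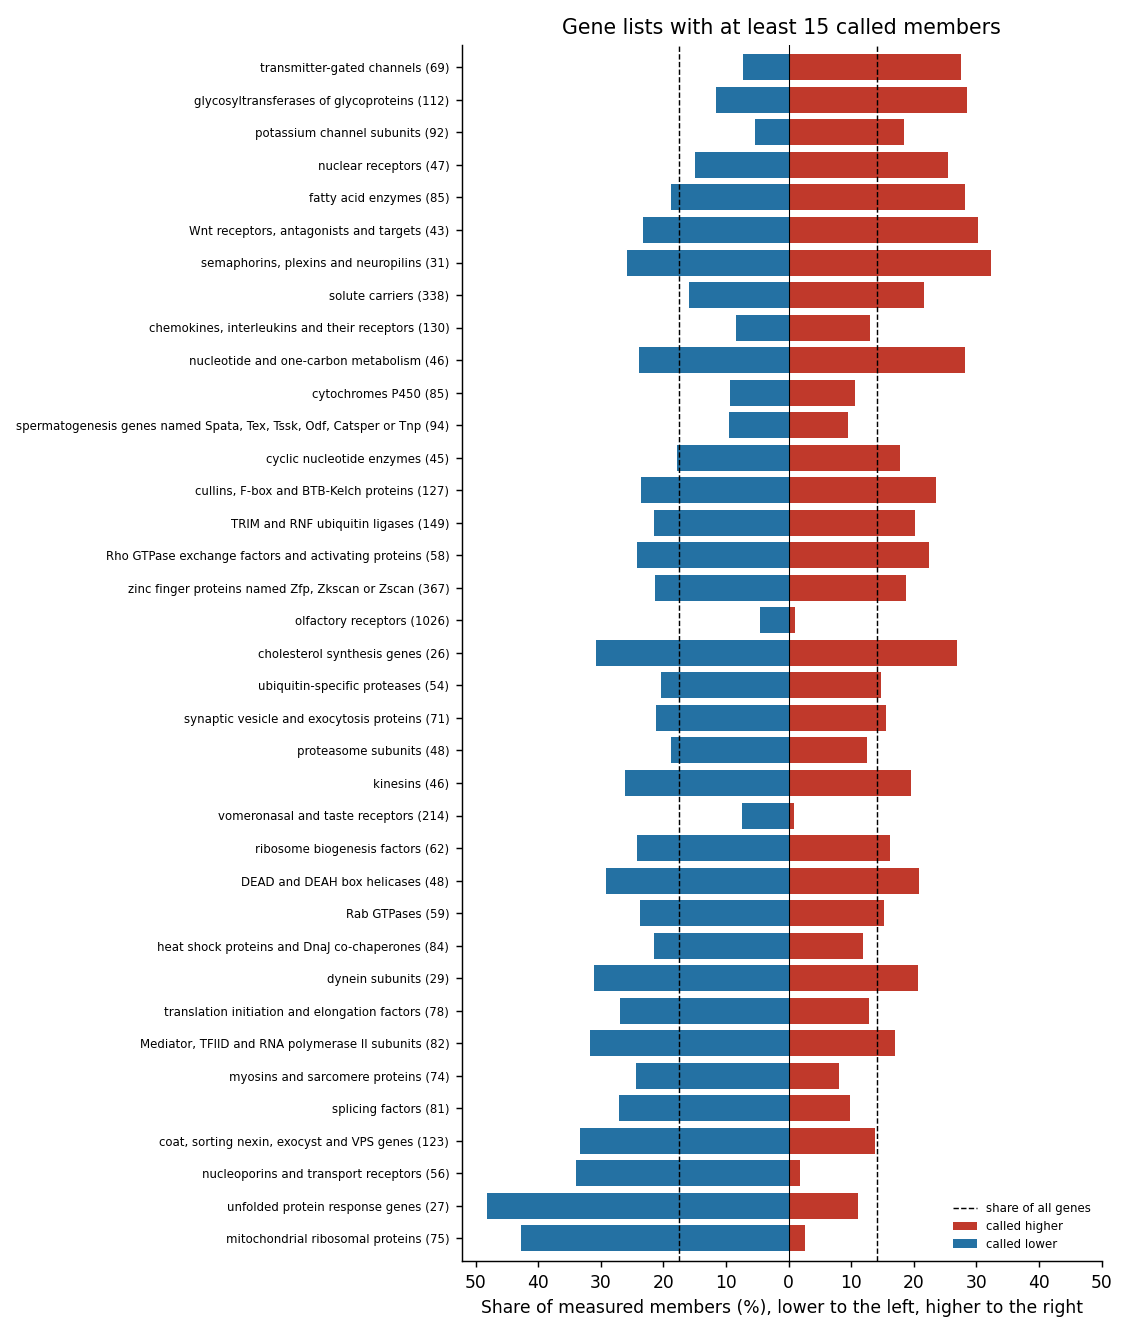
Bars give the share of measured members (%) called lower (blue, to the left) and higher (red, to the right) in each list with at least 15 called members, cell type markers left out, and brackets give the number of members measured. Dashed lines mark the shares over all genes, 17.5% lower and 14.2% higher. Mitochondrial ribosomal proteins have 42.7% lower and transmitter-gated channels 27.5% higher.

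Metabolic lists were mixed. Of 85 fatty acid enzymes and binding proteins 24 rose and 16 fell, which turned to 21 and 27 with median centring. Scd3, a desaturase, rose by 1.94 ± 0.15 and differed by 1.06 in the Ring1 mutant, and its neighbour in the family Scd2 fell by at least 0.79. Of 26 cholesterol synthesis genes 7 rose and 8 fell (8 and 6 after quantile normalization). Of 30 glycolysis and pentose phosphate enzymes 7 rose and 5 fell, and with median centring 4 rose and 10 fell. Ldha, lactate dehydrogenase, read 6.59, 6.35 and 6.66 against 8.11, 8.05 and 7.92. Prps2, which makes the ribose precursor of nucleotides, rose by 3.65 ± 0.18.

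Gene clusters of the germline and placenta held large changes among few called members. Of 14 Rhox and Xlr genes 3 rose and 1 fell, which turned to 2 and 4 with median centring. Xlr, an X-linked germ cell gene, read 3.54, 3.97 and 3.53 in control and 8.15, 7.82 and 8.11 in the double mutant. Of 94 genes named for spermatogenesis 9 rose and 9 fell (9.57% each). Spata22, which is needed for meiotic recombination, read 2.36, 2.22 and 2.39 against 5.81, 6.19 and 5.79. Of 62 prolactin, Psg, Ceacam and related placental genes 4 rose and 8 fell (8 and 3 with centring on abundant genes). Plac1 rose by 3.78 ± 0.14 and differed by 1.11 in the Rnf2 mutant, and Prl8a2 rose by at least 3.35. Of 19 Pramel, Oog and Obox genes 5 rose and 6 fell, and members of these clusters can share probes. Of 1026 olfactory receptor genes 11 rose and 47 fell with a median of -0.06, and with centring on abundant genes 51 rose and 6 fell. With median centring 7 of them rose and 261 fell, and the falls among 214 vomeronasal and taste receptors went from 16 to 71.

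Changed genes were spread over all chromosomes, with a larger share of rises on the X. Of 746 X-linked genes 57 were at least 2-fold higher (7.64%), and the autosomal shares ran from 1.89% on chromosome 17 to 4.70% on chromosome 3. Over all calls 171 X-linked genes rose (22.9%) and 89 fell (11.9%), with a median of 0.01. The share of 2-fold rises on the X was 7.10% after quantile normalization, 6.30% with median centring and 8.04% with centring on abundant genes. With median centring falls led on the X, at 180 against 130 rises. These shares have no test, since neighbouring genes are not independent. Ring1 lies on chromosome 17, where 10.2% of 954 genes rose and 21.7% fell, against 14.2% and 17.5% over all genes. Larger shares fell on chromosome 5 (23.95%) and chromosome 8 (23.3%).

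**Figure D5:**
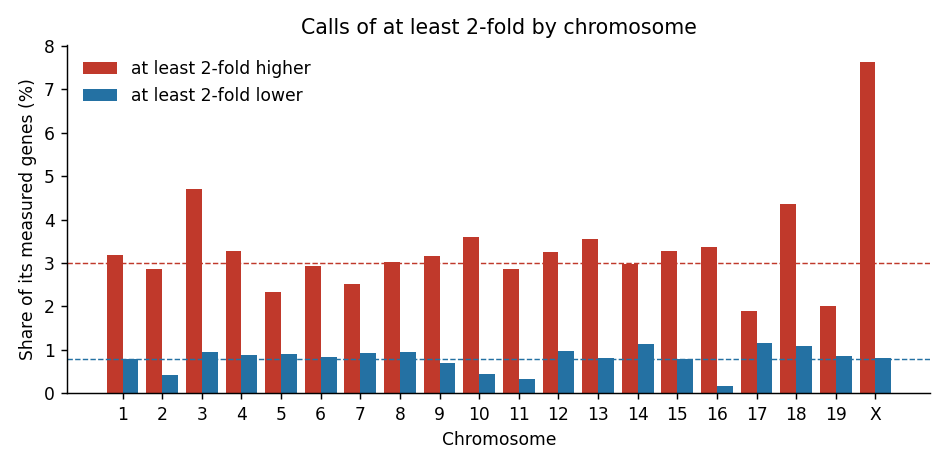
Bars give the share of each chromosome's measured genes (%) called at least 2-fold higher (red) or lower (blue). Dashed lines mark the shares over all genes, 3.00% and 0.782%, and the X chromosome stands at 7.64% higher.

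The calls of neighbouring genes are given as shares, with no test. Among the nearest measured genes on either side of a gene at least 2-fold higher, 23.1% were called higher, against 14.99% around all genes, and 6.84% were at least 2-fold higher, against 3.20%. Around genes at least 2-fold lower 30.9% of neighbours were called lower, against 18.04%. Runs of adjacent measured genes that were all at least 2-fold higher numbered 38, of which 34 held 2 genes, 3 held 3 and 1 held 4. The run of 4 was Pctp, Tmem100, Mmd and Hlf on chromosome 11, with rises of 1.11 to 2.00. A run of Bex1, Tceal9 and Bex3 on the X rose by 1.15 to 2.40. These runs were chosen after their values were seen. Overlapping or near-identical genes can share probes, and their part in these runs was not tested.

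The spread between arrays of a genotype was small beside the larger changes. The median standard deviation over genes was 0.10 in control (n = 3) and 0.10 in the double mutant (n = 3), and the median standard error of a difference was 0.09. Among genes at least 2-fold lower the double mutant standard deviation was larger than the control one in 67.3%, against 53.0% of all genes. Their medians were 0.15 and 0.11. Among genes at least 2-fold higher the share was 53.8%.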

How the data were processed

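Gene expression was measured on whole-transcript arrays. The deposited table holds 1 log2 intensity per probe set and array. Array medians were 4.32 to 4.37 in control and 4.41 to 4.52 in the double mutant, without overlap. R 2.10.0 and the affy package are named, per the submitters' processing notes. Background correction, summarization and genome build are not stated in the labels or in the table used. Of 34760 probe sets, 22843 named 1 gene, 1769 several, 10117 none and 31 were not listed. Symbols were updated through a GRCm38.p6 gene table (19591 by gene number, 165 by accession, 891 by symbol, 648 by older symbol, 1548 kept). Each gene was read from its brightest probe set by the 12-array mean, which left 21106 genes.

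Genotype means were estimated jointly from the 12 arrays in limma 3.58.1 (lmFit, then eBayes; R 4.3.3), with Benjamini-Hochberg adjustment. No pair of arrays held identical values. Precision is limited by the 3 arrays in each group.

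The comparison, the 79 gene lists and the tests were chosen with earlier results of these data known. Named genes were Ring1 and Rnf2, the 4 largest called rises and falls without overlap in each of the 4 level classes, and per list the 2 largest called rises and falls, or the brightest member where none was called, 330 genes in all, of which a part is described; a few are not reported here. Alternatives were other scalings, variance models, array weights, a filter on dim genes, the mean of probe sets, a stricter threshold, other floors, the replicate number as a block, and leaving out each array.

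Promoter sequences from RefSeq had to cover 80% of a gene set. The planned set, all genes tested, had 72.4% (76.3% of rises and 72.7% of falls of at least 2-fold). After the CpG shares had been seen, 2 narrower sets were tried: protein-coding genes, with 79.996% (77.5% of the rises), and protein-coding genes on the chromosomes of the promoter table, with 81.9%. That last set passed narrowly, with 80.1% of the rises, and missed the limit for rises from below the floor (78.7%) and in the low class (79.3%). Because it came last of the sets tried, no promoter share is reported from any of the 3.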

Additional observations from a re-analysis of the deposited data

Results flagged for a closer look

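Among 11917 probe sets without a single gene name, which no comparison above uses, 86 were called at least 2-fold higher in the double mutant and 118 at least 2-fold lower in a limma fit over all 34760 probe sets. They were listed for a closer look because they lie outside the genes tested. Probe sets that name several genes can read any of them.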

How the results depend on the processing

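Counts of all calls depended on the scaling. Median centring gave 7176 lower genes in place of 3687, and centring on the most abundant 25% of genes gave 4591 higher and 2250 lower. Leaving out each array in turn gave 2629 to 2881 higher, 2991 to 3387 lower, 633 to 665 at least 2-fold higher and 150 to 180 at least 2-fold lower. With the floor at the 90th percentile of olfactory receptors 20.3% of the 2-fold rises started below it, and with the 99th 91.0% of these rises and 30.3% of the 2-fold falls. The other alternatives kept the counts of calls within 1.5 times. Ring1, never called, read -0.05 as deposited, 0.062 with centring on abundant genes, and -0.15 to 0.090 when each array was left out, with the sign turned only without double mutant replicate 2. Of the 330 named genes 11 lost their call with centring on abundant genes, 7 with median centring and 5 after quantile normalization. Same-numbered control and double mutant arrays deviated with correlations of 0.064, 0.206 and 0.135. The values of replicates 2 and 3 lie above the limit of 0.1 set for pairing, so a shared replicate effect is not excluded. The labels name no pairs, and the main fit used none. With a replicate block 2977 genes were higher and 3564 lower. The alternative for promoter shares, all called genes in place of 2-fold changes, was computed and is not reported, because the planned promoter comparison is void and 3 gene sets had been tried for it. With levels below the floor set to the floor, 543 rises and 158 falls of at least 2-fold remained.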
